A study of Rattus norvegicus with 32 samples.

Results

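C6 is an established rat glioma cell line, and the arrays described here ask how its transcripts differed when the AT1 receptor was blocked with Losartan before angiotensin II (Ang II) was added, relative to cells that received neither agent. The 8 arrays labelled Ang II+Los and Control at the 3 h interval were taken from the 32 arrays of the series by their labels alone, 4 replicates in each group. Cells of the Ang II+Los group were grown to confluence in medium with fetal bovine serum, received Losartan at 10 µM for 30 min and then Ang II at 100 nM, and were collected 3 h after the peptide. Control cells were grown in the same way and received no Ang II and no antagonist. No group received Losartan without Ang II, so the comparison (Ang II+Los x Control) holds the difference made by both agents together. The companion groups of the same time, Ang II alone and Ang II with the AT2 antagonist PD123319 at 10 µM, are used to show on which arrays a gene stood apart, and their fitted differences are given beside a few genes.

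Each slide of 4 arrays carried 1 replicate of each group, with Control in the first position and Ang II+Los in the third on every slide, so array position and treatment cannot be told apart. Slides 1 and 2 were scanned in one session and slides 3 and 4 in another. The labels do not say whether the replicates were separate cultures, and the p-values then measure the spread between these samples, which may be technical. Labelled RNA was hybridised in 1 colour to whole rat genome arrays, and values are log2 of the processed fluorescence intensity after normalization among the 16 arrays of 3 h. A gene was tested when one of its probes exceeded the local background clearly on each array of 1 or more groups, which left 13630 genes. Between 56.9% and 61.3% of the 42877 spots were well above background on the Control arrays and between 55.9% and 64.5% on the Ang II+Los arrays, and the number of arrays limits the precision: the median standard error of a difference was 0.159 on the log2 scale. Fewer cells of a kind and less RNA per cell cannot be told apart in these bulk samples.

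Ang II is the effector peptide of the renin-angiotensin system. It binds 2 G protein-coupled receptors with largely opposed actions. AT1 couples to Gq, phospholipase C, calcium and protein kinase C and activates ERK kinases, immediate early genes, matrix synthesis and growth, while AT2 is held to restrain growth. Losartan occupies AT1 and leaves AT2 free to bind the peptide. In glioma cells the pathways of most interest are those of proliferation, adhesion and invasion, and the stress pathways that halt translation when nutrients run short or unfolded proteins collect in the endoplasmic reticulum (ER).

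A gene was counted as changed when its unadjusted p in limma was under 0.05 and its fold was above 1.2 or below 0.8. By these limits 2724 of 13630 genes differed between Ang II+Los and Control (20.0%), 1352 higher (9.92%) and 1372 lower (10.1%) with Losartan and Ang II. At an unadjusted p under 0.05 alone there were 2962 genes, where 681.5 would be expected if no gene differed. That excess depended on the fit. The count was 657 without the replicate block, 598 with a paired t-test and 287 with an unpaired t-test, each below 681.5. No gene had an adjusted p under 0.05 in limma, and the lowest was 0.178. All verbs of change below therefore rest on the unadjusted limits. The median fold of the changed genes was 1.42 in either direction, 242 of them exceeded 2-fold and 42 exceeded 3-fold. Of the 2724 genes, 1511 moved the same way in all 4 replicate pairs (882 up, 629 down), which is 11.1% of all genes tested. Among all 13630 genes, past the limits or not, 1569 were higher and 1284 lower in all 4 pairs.

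The 4 pairs did not carry the difference equally. The standard deviation over all genes of the log2 difference between Ang II+Los and Control of the same slide was 0.639 in replicate 1 and 0.978 in replicate 2, against 0.260 in replicate 3 and 0.340 in replicate 4. Of the 2691 changed genes with a value in all 4 pairs, 2125 (79.0%) had their largest difference in replicate 2, 449 in replicate 1, 88 in replicate 4 and 29 in replicate 3. The Ang II+Los array of replicate 2 stood more than 2-fold from the mean of the other 3 arrays of its slide for 16.1% of genes and that of replicate 1 for 6.32%, whereas those of replicates 3 and 4 did so for 0.103% and 0.133%. Among Control arrays the shares were 1.85%, 7.79%, 0.265% and 1.2%. The differences of replicates 1 and 2 also moved with the GC content of the probes (Pearson r across genes of -0.286 and -0.192, a description, since genes are not independent), while r was 0.00399 in replicate 3 and -0.101 in replicate 4. The part of RNA quality, labelling or position in these differences was not tested. Without replicate 2, 852 genes were past both limits, without replicate 1, 1615, and without the replicate block, 651. Scaling each array to its 75th percentile in place of loess gave 1159 higher and 1790 lower genes, 60.7% lower. When each scan was fitted alone, scan 1 gave 3641 genes and scan 2 gave 776, and 243 genes were past the limits in both (6.67% of the first and 31.3% of the second), of which 181 had the same direction.

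**Figure D1:**
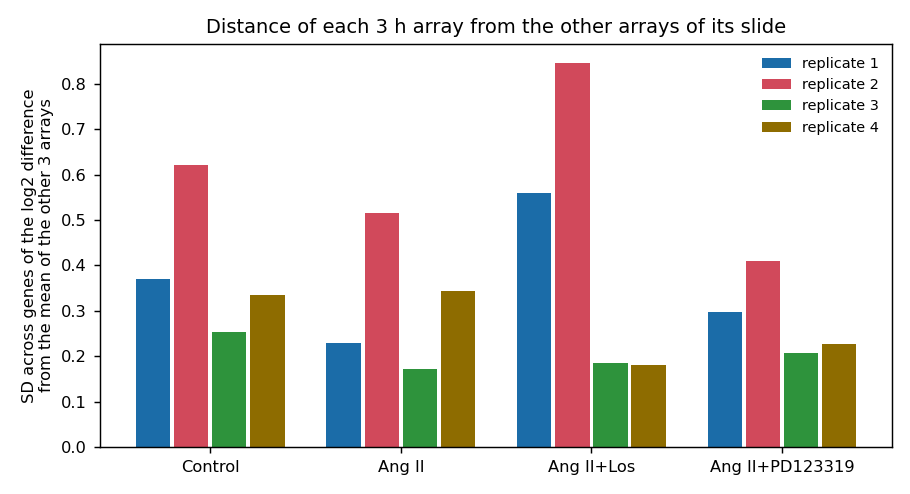
Spread of each 3 h array from the other 3 arrays of its slide (standard deviation over genes of the log2 distance), by group and replicate. The Ang II+Los arrays of replicates 1 and 2, at 0.559 and 0.846, and the Control array of replicate 2, at 0.621, lie furthest out, while the Ang II+Los arrays of replicates 3 and 4 lie at 0.186 and 0.18.

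Read gene by gene, 3 forms of difference recurred, and some genes, such as Rrm2 and Vta1, had none of them. In the first, the Control arrays of replicates 2 and 4 stood apart from the 3 treated arrays of their slides, which was the pattern of the stress genes. In the second, the Ang II+Los arrays of replicates 1 and 2 stood apart from every other array, which was the pattern of several membrane, cytoskeletal and matrix genes. In the third, a smaller difference had the same sign and a similar size on all 4 slides. Each form is described below with the genes that show it.

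The renin-angiotensin genes themselves were sparse. Agtr1a and Agtr1b, which encode the AT1 receptor that Losartan blocks, Agtr2, which encodes AT2, and the Ang-(1-7) receptor Mas1 were well above background on 0 of the 16 arrays, so no difference in receptor transcripts was measurable here. The peptidase gene Mme was likewise above background on 0 arrays, and the precursor gene Agt on 7. Of the 18 genes in the list, 6 were tested and 1 passed. Agtrap, which encodes a protein that binds the tail of AT1 and promotes its internalisation, fell.

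Agtrap read 8.57, 8.99, 9.87 and 9.5 on the Control arrays of replicates 1 to 4 and 8.22, 8.74, 9.5 and 9.19 on the Ang II+Los arrays. The groups overlap because slides differ in level, yet every Ang II+Los array lay below the Control array of its slide, by 0.25 to 0.38 on the log2 scale. The fitted difference was -0.32 ± 0.10 (SE; fold 0.799, unadjusted p = 0.00909, adjusted p = 0.178 in limma), from 1 probe at chr5:165154364-165154423 of rn4. The fold lay just inside the limit of 0.8. Other measured members had differences of -0.37 ± 0.25 for the aminopeptidase Lnpep, -0.08 ± 0.15 for the converting enzyme Ace, -0.06 ± 0.17 for the prorenin receptor Atp6ap2 and -0.00409 ± 0.11 for the AT2-interacting protein gene Mtus1, none past the limits.

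Downstream of the receptor, 25 of 32 genes of AT1 coupling to G proteins, protein kinase C and ERK were tested, and 2 rose and 1 fell (12%, below the 20.0% of all genes), with a median difference of 0.00486 against -0.0115 over all genes. Prkcd, a protein kinase C isoform, rose by 0.34 ± 0.13 and Map2k2, a kinase that activates ERK, by 0.55 ± 0.23. The latter value came mostly from replicate 2, where the pair difference was 1.72, against 0.24, 0.18 and 0.05 in replicates 1, 3 and 4. Arhgef1, a RhoA exchange factor, fell by 0.37 (SE 0.14).

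Map2k4, a kinase that activates JNK and p38, showed the third form. It read 5.47, 5.50, 5.53 and 5.68 on the Control arrays and 5.86, 5.95, 5.96 and 6.07 on the Ang II+Los arrays, so that the groups did not overlap. The difference was 0.42 ± 0.14 (unadjusted p = 0.00926, adjusted p = 0.178 in limma), and the 4 pairs gave 0.40, 0.45, 0.44 and 0.39. The gene was measured by 2 probes, the first at chr10:52014623-52014682 of rn4. On the arrays of Ang II alone Map2k4 read 5.53, 6.45, 5.83 and 6.24, a difference from the same Control arrays of 0.47 (unadjusted p = 0.0046), and Ang II+Los minus Ang II was -0.05 (unadjusted p = 0.71). Agtrap differed from Control by -0.46 (unadjusted p = 0.00085) with Ang II alone, and the gap between Ang II+Los and Ang II was 0.13 (unadjusted p = 0.22). These comparisons share arrays, and their values are set side by side only.

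The genes named next are taken from the 12 highest and 12 lowest differences among genes that moved the same way in all 4 pairs and were well above background on all 8 arrays, limited to genes with a symbol (no accession, probe ID, LOC or RGD number). The highest was Ppp1r3c, which targets protein phosphatase 1 to glycogen, at 1.54 ± 0.51 (2.9-fold). It read 6.64, 4.58, 6.74 and 7.50 in Control and 7.75, 8.86, 7.03 and 7.96 in Ang II+Los. The Control array of replicate 2 was the lowest of all and the Ang II+Los array of the same slide the highest, and that pair alone differed by over 4 log2 units. Apln, which encodes apelin, a peptide whose receptor resembles AT1 in sequence, followed at 1.19 ± 0.33. It read 7.68, 6.12, 5.80 and 6.47 in Control and 8.10, 9.03, 6.25 and 7.45 in Ang II+Los, higher in each pair with overlapping groups.

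Of the 12, 3 were chromatin or replication genes: the helicase Hells at 1.10 ± 0.24, the replication licensing factor Cdc6 at 1.04 ± 0.29 and the histone chaperone subunit Chaf1b at 0.98 ± 0.24. Hells read 7.71, 6.25, 5.53 and 6.89 in Control and 8.65, 8.51, 5.94 and 7.70 in Ang II+Los. Its smallest pair difference was in replicate 3, where both arrays were at their lowest level. Others were the RNA polymerase II subunit gene Polr2d (1.14 ± 0.31), Fam117a (1.00 ± 0.26), the endosomal sorting gene Vta1 (0.93 ± 0.37), the mitochondrial channel gene Vdac3 (0.92 ± 0.21), the histone co-chaperone Dnajc9 (0.90 ± 0.29) and the proteasome assembly gene Psmd5 (0.90 ± 0.24).

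Vdac3 read 12.23, 12.06, 12.33 and 11.65 in Control, 13.76, 13.26, 12.51 and 12.43 in Ang II+Los, and 13.44, 13.34, 12.49 and 12.70 in Ang II alone. All 4 Ang II+Los arrays were above all 4 Control arrays. Ang II+Los minus Ang II was -0.00166 for Vdac3 (unadjusted p = 0.99).

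**Figure D2:**
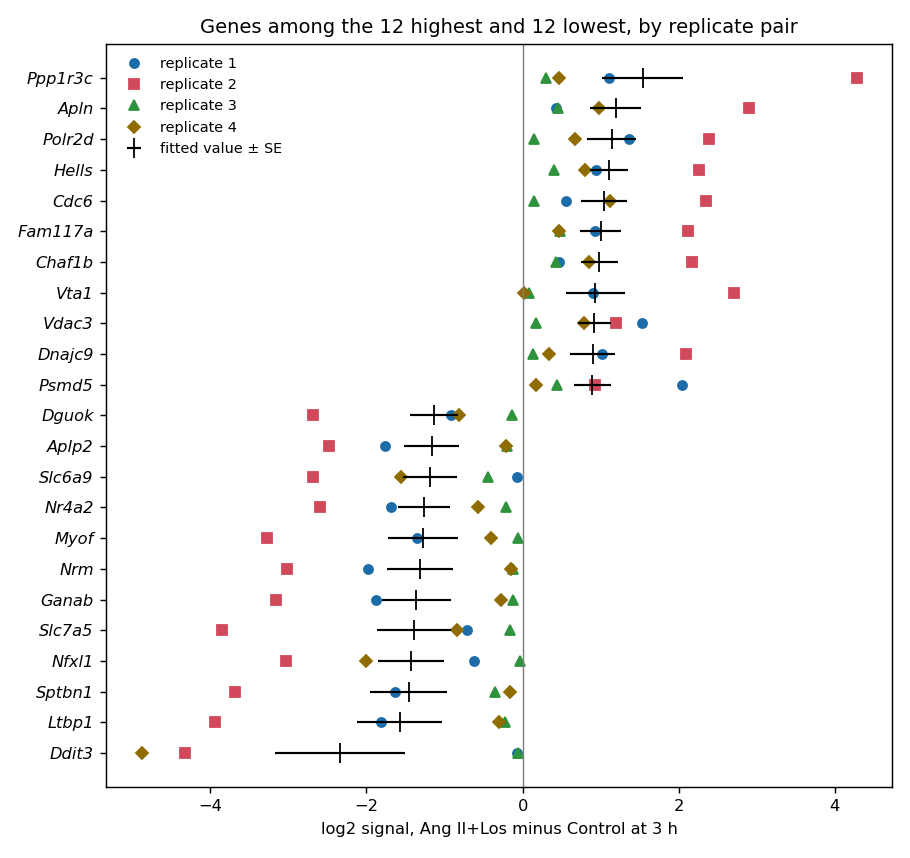
Log2 difference between Ang II+Los and Control in each of the 4 replicate pairs at 3 h for genes taken from the 12 highest and 12 lowest, with the fitted mean and its standard error. Differences run from 1.54 for Ppp1r3c to -2.33 for Ddit3, and in most genes the point of replicate 2 lies furthest from 0.

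Lowest of the 12 was Ddit3, which encodes CHOP, the transcription factor induced by unresolved ER and amino acid stress. Its probe lies at chr7:67252505-67252564 of rn4. The remaining genes were Ltbp1 (-1.57 ± 0.54), the spectrin gene Sptbn1 (-1.46 ± 0.49), Nfxl1 (-1.43 ± 0.42), the amino acid transporter Slc7a5 (-1.39 ± 0.48), the ER glucosidase subunit Ganab (-1.36 ± 0.44), the nuclear membrane gene Nrm (-1.31 ± 0.43), the membrane repair gene Myof (-1.27 ± 0.45), the nuclear receptor Nr4a2 (-1.27 ± 0.33), the glycine transporter Slc6a9 (-1.19 ± 0.35), the amyloid precursor relative Aplp2 (-1.16 ± 0.35) and the mitochondrial deoxyguanosine kinase Dguok (-1.14 ± 0.31). The adjusted p-values of these 12 ran from 0.178 to 0.187 in limma.

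The integrated stress response is the program in which phosphorylation of eIF2α slows translation while ATF4 and CHOP drive amino acid transporters, tRNA synthetases and feedback genes. Of 28 listed members 25 were tested, 13 fell and none rose (52.0% past the limits, against 20.0% of all genes), with a median difference of -0.448. The members that fell were Trib3, Ddit3, Sesn2 (RGD1566319 on the array), Slc7a5, Ppp1r15a, Slc7a1, Mthfd2, Atf4, Nupr1, Slc3a2, Sars, Atf5 and Wars. List medians within the pairs were 0.0542, -0.993, -0.0610 and -0.832 for replicates 1 to 4, so the fall lay in replicates 2 and 4.

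Ddit3 read 10.25, 15.13, 15.03 and 15.02 on the Control arrays and 10.17, 10.80, 14.97 and 10.15 on the Ang II+Los arrays, a difference of -2.33 ± 0.83 (unadjusted p = 0.0155, adjusted p = 0.187 in limma). On slide 1 both arrays were low, on slide 3 both were high, and on slides 2 and 4 Control was high and Ang II+Los low. With Ang II alone Ddit3 read 10.20, 10.33, 15.05 and 10.08, and with PD123319 10.42, 10.63, 15.16 and 10.32, so that the arrays of slides 2 and 4 that stood apart were those of Control.

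Trib3, a pseudokinase gene induced by CHOP, had the same layout. It read 6.62, 11.58, 11.99 and 11.95 in Control and 5.92, 7.16, 12 and 7.27 in Ang II+Los, a difference of -2.45 ± 0.73 (unadjusted p = 0.00557). Sesn2, a stress-induced inhibitor of mTORC1, read 5.09, 7.65, 7.43 and 7.62 in Control and 5.00, 4.51, 7.69 and 4.97 in Ang II+Los (-1.41 ± 0.49). In both genes 1 of 4 Control arrays was low and 1 of 4 Ang II+Los arrays was high, and these arrays fix the overlap of the groups.

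Atf4 itself differed by -0.89 ± 0.37 with pair differences of 0.05, -1.51, 0.03 and -2.15, and Ppp1r15a, the phosphatase subunit that ends the response, by -1.31 ± 0.42 with pair differences of -0.56, -2.49, 0.09 and -2.29. Among transporters and enzymes, Slc7a1 was at -0.93 ± 0.24, the folate cycle gene Mthfd2 at -0.93 ± 0.28, the stress regulator Nupr1 at -0.88 ± 0.27 and the transporter heavy chain Slc3a2 at -0.88 ± 0.30. The tRNA synthetases Sars (-0.71 ± 0.21) and Wars (-0.33 ± 0.13) and the factor Atf5 (-0.47 ± 0.14) moved least. Measured from the midpoint of the Ang II and PD123319 arrays of the same slide, the list's median was 0.84 and 0.80 higher on the Control arrays of replicates 2 and 4, while the Ang II+Los arrays of those slides were at -0.35 and -0.092. Without replicate 2, 4 members were past both limits and lower, without replicate 4, 6, and with both left out, 0. What set the level of this response on the Control arrays, and in both groups of slides 1 and 3, was not tested.

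**Figure D3:**
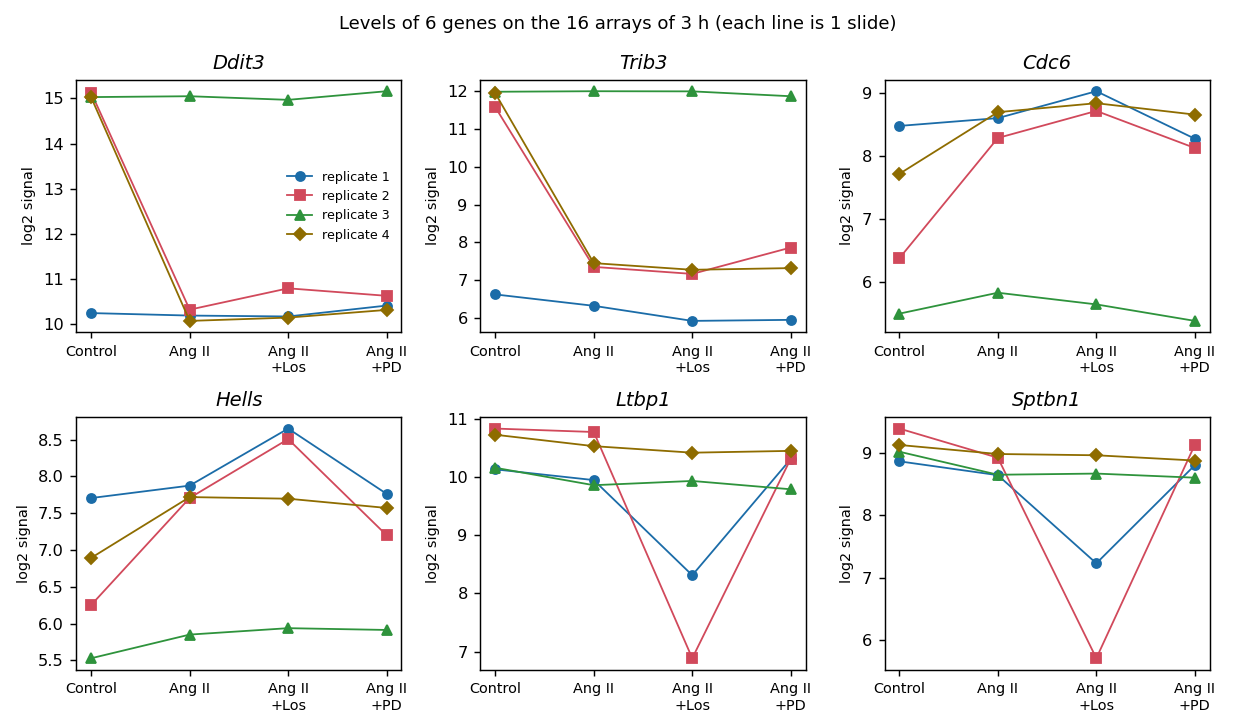
Log2 levels of chosen genes on all 16 arrays of 3 h, by slide and group. For Ddit3 and Trib3 all arrays of slide 1 are low and all of slide 3 are high, and on slides 2 and 4 Control alone is high; for Ltbp1 the Ang II+Los arrays of slides 1 and 2, at 8.31 and 6.89, lie below all others.

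Genes of ER folding and of the unfolded protein response fell as well. All 22 members were tested, 10 fell and none rose (45.5%), and the median difference was -0.432. The pair medians were -0.0566, -1.38, -0.190 and -0.271, so that replicate 2 carried most of the shift. Both forms of difference met in this group. Herpud1, which takes part in degradation of ER proteins, read 9.75, 13.19, 13.24 and 12.90 in Control and 10.41, 9.82, 13.00 and 9.09 in Ang II+Los (-1.69 ± 0.69), the layout of Ddit3. Calr, the ER calcium store and lectin chaperone calreticulin, read 11.43, 13.61, 13.71 and 13.99 in Control and 10.18, 10.39, 13.71 and 13.76 in Ang II+Los (-1.17 ± 0.46). Here replicate 4 differed by -0.22, and the Ang II arrays, at 11.51, 13.29, 13.49 and 13.66, followed Control.

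Hsp90b1 (Tra1 on the array), which encodes the ER chaperone GRP94, differed mainly in replicate 2, at -0.72 ± 0.31 by the fit: Control read 11.92, 14.64, 14.38 and 14.52 and Ang II+Los 11.63, 12.43, 14.26 and 14.25. Syvn1, the ubiquitin ligase of ER-associated degradation, fell in every pair by more than the fold limit (-0.48, -2.11, -0.44 and -1.18), with a fitted difference of -1.05 ± 0.23 (unadjusted p = 0.000633). It read 9.27, 10.98, 11.44 and 10.90 in Control and 8.79, 8.87, 10.99 and 9.72 in Ang II+Los, and the groups overlapped. The other members that fell were the co-chaperone Dnajb9 (-0.97 ± 0.30), Sel1l (-0.59 ± 0.20), the disulphide isomerase P4hb (-0.52 ± 0.21), the sensor Atf6 (-0.51 ± 0.23), Manf (-0.51 ± 0.20) and Sdf2l1 (-0.33 ± 0.12). Without replicate 2, 1 member of the list was lower, without replicate 4, 5, and without both, 1.

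Promoter sequences of a few of these genes are shown with elements known from such groups, as a description. The ER stress response element (ERSE) is bound by ATF6 with NF-Y and was searched as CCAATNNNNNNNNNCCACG on both strands in the 250 bases before the start of each gene in RefSeq, build GRCr8. It was found in 0.0765% of 27457 promoters (21) and in 7 of the 17 ER genes with a promoter sequence (41.2%), of which 2 were among the 8 that fell and had a promoter. The other ER genes with the element were not past the limits, so it did not mark the members that fell. The 2 that fell are printed with the element in capitals. The amino acid response element TTGCATCA, a composite site for ATF4 and C/EBP factors, was in 0.656% of promoters, in 1 of 19 integrated stress response genes and in 1 of 17 ER genes, which was Herpud1. A match describes the letters and does not show binding.
Calr promoter (GRCr8, chr19:40213117-40213366, + strand): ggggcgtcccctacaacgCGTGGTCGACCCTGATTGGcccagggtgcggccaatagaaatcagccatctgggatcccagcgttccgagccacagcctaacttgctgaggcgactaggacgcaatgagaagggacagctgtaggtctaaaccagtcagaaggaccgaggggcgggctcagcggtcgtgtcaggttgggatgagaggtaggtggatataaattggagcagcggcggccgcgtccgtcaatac
Hsp90b1 promoter (GRCr8, chr7:23012294-23012543, - strand): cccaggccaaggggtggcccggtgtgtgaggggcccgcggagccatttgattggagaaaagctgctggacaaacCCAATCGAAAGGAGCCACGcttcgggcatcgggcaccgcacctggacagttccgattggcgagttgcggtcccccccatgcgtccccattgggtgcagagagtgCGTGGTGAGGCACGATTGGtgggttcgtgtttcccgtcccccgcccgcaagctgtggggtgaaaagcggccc
Herpud1 promoter (GRCr8, chr19:10614708-10614957, - strand): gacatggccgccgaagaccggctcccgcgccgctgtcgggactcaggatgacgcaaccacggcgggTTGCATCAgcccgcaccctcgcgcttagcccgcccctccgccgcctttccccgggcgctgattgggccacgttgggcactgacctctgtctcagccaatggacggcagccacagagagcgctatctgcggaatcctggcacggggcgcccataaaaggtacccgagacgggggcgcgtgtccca

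DNA replication genes moved the other way. Of 43 listed, 41 were tested, 18 rose and 1 fell (46.3%), and the median difference was 0.376. The pair medians were 0.241, 0.616, 0.116 and 0.311, above the all-gene median in each of the 4 pairs. Origin licensing and firing genes that rose were Cdc6, Orc1 (Orc1l on the array, 0.87 ± 0.27), Orc6 (Orc6l, 0.66 ± 0.16), Cdc45 (Cdc45l, 0.52 ± 0.18), Gins1 (0.54 ± 0.19), Gins2 (0.87 ± 0.20), Mcm2 (0.29 ± 0.12), Mcm3 (0.67 ± 0.17), Mcm7 (0.36 ± 0.15) and Mcm10 (0.41 ± 0.15).

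Cdc6, which loads the MCM helicase at origins, read 8.48, 6.38, 5.50 and 7.72 in Control and 9.04, 8.72, 5.64 and 8.85 in Ang II+Los. The largest difference was on slide 2, where Control was low, and on slide 3 both arrays were at their lowest. Gins2, a subunit of the helicase complex, rose in every pair by more than the fold limit and was well above background on 3 of the 4 Ang II+Los arrays, with 7.11, 5.58, 4.12 and 6.00 in Control and 7.83, 7.11, 4.46 and 6.88 in Ang II+Los (unadjusted p = 0.000846). The level differed more between slides than between the groups, so the groups overlapped while the pairs did not cross.

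Fork and nucleotide genes that rose included the primase subunits Prim1 (0.40 ± 0.13) and Prim2 (0.39 ± 0.17), the polymerase δ subunit Pold1 (0.57 ± 0.18), the clamp loader Rfc5 (0.30 ± 0.12), the single-strand binding subunit Rpa2 (0.45 ± 0.16), the flap nuclease Fen1 (0.53 ± 0.16) and thymidylate synthase, Tyms (0.44 ± 0.13). The ribonucleotide reductase subunit Rrm2 had the largest difference, 1.59 ± 0.56, but its pair differences were 0.00, -0.02, 3.26 and 3.12, and with each probe fitted on its own the least supporting probe gave -0.188. The polymerase α gene Pola1 was the member that fell (-0.43 ± 0.18, lower in all 4 pairs, and well above background on 3 of 4 arrays in each group).

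Mitotic genes followed with smaller differences: 37 of 42 were tested, 9 rose and none fell. Their share past the limits, 24.3%, was close to the 20.0% of all genes in either direction, of which 9.92% were higher. The median was 0.248 and the pair medians were 0.289, 0.508, 0.137 and 0.0638. The 9 were the chromosomal passenger genes Cdca8 (0.55 ± 0.12) and Birc5 (0.59 ± 0.26), the checkpoint genes Mad2l1 (0.70 ± 0.22) and Bub3 (0.41 ± 0.15), cyclin B1, Ccnb1 (0.43 ± 0.16), the kinases Plk4 (0.52 ± 0.14) and Aurka (0.31 ± 0.12) and the motors Kif2c (0.42 ± 0.15) and Kif11 (0.35 ± 0.14). Cdca8 differed by 0.52, 0.50, 0.73 and 0.43 in the 4 pairs and read 6.52, 5.16, 3.83 and 5.83 in Control and 7.04, 5.66, 4.57 and 6.26 in Ang II+Los. Slides differed far more than treatments, and the pairs never crossed.

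Of 24 G1/S regulators 17 were tested, 2 rose and 2 fell (23.5%). Ccne1, which encodes cyclin E1 that drives S phase entry, rose by 0.88 ± 0.21 (unadjusted p = 0.00123; pairs 0.77, 1.66, 0.21 and 0.89) and the phosphatase Cdc25a by 0.42 ± 0.17. The kinase inhibitors Cdkn1a (p21) and Cdkn1b (p27) were lower by the fit, at -0.47 ± 0.20 and -0.61 ± 0.25. Both rested on replicates 1 and 2: Cdkn1b pair differences were -1.25, -1.37, 0.24 and -0.07, and on slides 3 and 4 alone its difference was 0.0838. Measured from the Ang II and PD123319 arrays of the same slide, the DNA replication list was at -0.45 and -0.38 on the Control arrays of replicates 2 and 4, which had high stress genes, and at 0.22 and 0.25 on the Ang II+Los arrays of replicates 1 and 2. Without replicate 2, 11 replication and 3 mitotic genes were higher, and without replicate 4, 11 and 11. With replicates 2 and 4 left out together, 4 replication genes and 1 mitotic gene were past the limits and higher.

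E2F factors, which govern the G1/S genes, bind sites searched as TTTCGCGC, TTTGGCGC, TTTCCCGC and TTTGGCGG on both strands. At least one was in 1.89% of promoters and in 12 of 34 DNA replication promoters (35.3%), 6 of them among 16 genes past the limits. The cell cycle homology region TTTGAA, used by mitotic genes, was in 16% of promoters and in 16 of 34 mitotic promoters (47.1%), 2 of them among 9 genes that rose. The other mitotic genes with it were not past the limits, so it did not mark the members that rose. Examples with the sites in capitals are printed for Mcm7, Tyms and Cdca8.
Mcm7 promoter (GRCr8, chr12:22163179-22163428, - strand): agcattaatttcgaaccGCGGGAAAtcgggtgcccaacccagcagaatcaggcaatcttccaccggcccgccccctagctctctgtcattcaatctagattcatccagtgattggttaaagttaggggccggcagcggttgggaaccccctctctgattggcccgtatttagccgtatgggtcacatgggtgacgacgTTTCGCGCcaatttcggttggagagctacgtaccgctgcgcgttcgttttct
Tyms promoter (GRCr8, chr9:120776084-120776333, - strand): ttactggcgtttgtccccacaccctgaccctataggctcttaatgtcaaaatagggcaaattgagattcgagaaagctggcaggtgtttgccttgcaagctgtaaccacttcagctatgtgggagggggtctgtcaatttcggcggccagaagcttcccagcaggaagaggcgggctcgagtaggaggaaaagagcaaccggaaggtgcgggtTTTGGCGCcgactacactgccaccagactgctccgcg
Cdca8 promoter (GRCr8, chr5:142483200-142483449, - strand): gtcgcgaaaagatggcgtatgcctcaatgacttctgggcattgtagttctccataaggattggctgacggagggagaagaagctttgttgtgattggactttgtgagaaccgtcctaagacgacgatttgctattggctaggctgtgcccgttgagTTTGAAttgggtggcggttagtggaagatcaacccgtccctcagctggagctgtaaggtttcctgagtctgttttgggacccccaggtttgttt

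**Figure D4:**
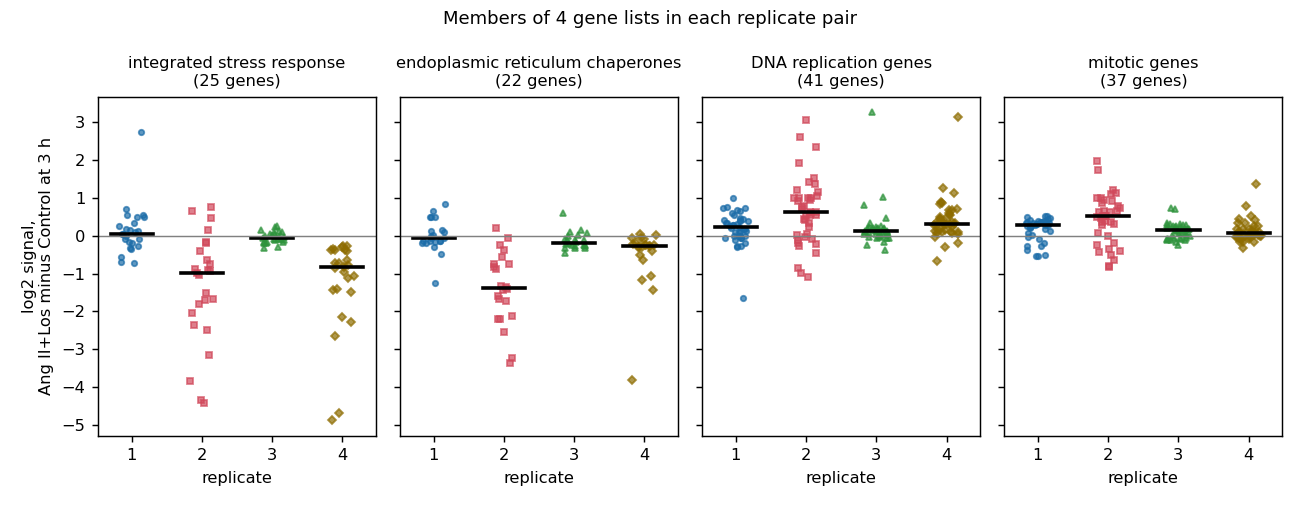
Log2 difference between Ang II+Los and Control in each of the 4 replicate pairs at 3 h. Points are members of the integrated stress response, ER chaperone, DNA replication and mitotic lists, and bars are list medians. The median of the integrated stress response list lies at -0.993 and -0.832 in replicates 2 and 4 and near 0 in replicates 1 and 3. That of the DNA replication list is above 0 in all 4 pairs.

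The second form of difference was seen in Ltbp1, which encodes a matrix protein that tethers latent TGF-beta. It read 10.13, 10.83, 10.16 and 10.72 in Control and 8.31, 6.89, 9.93 and 10.42 in Ang II+Los, while Ang II read 9.94, 10.77, 9.86 and 10.53. Only the Ang II+Los arrays of replicates 1 and 2 were low, and the 2 others were within 0.31 of Control. Sptbn1 read 8.86, 9.39, 9.02 and 9.13 in Control and 7.23, 5.71, 8.67 and 8.96 in Ang II+Los, Ganab and Myof had the same layout, and for Ltbp1 Ang II+Los minus Ang II was -1.39 (unadjusted p = 0.025).

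Actin cytoskeleton genes governed by SRF gave 5 lower and 2 higher of 25 tested (28.0%; median -0.120). The 5 were the actin monomer binder Pfn1 (-0.82 ± 0.36), the myosin heavy chain Myh9 (-0.75 ± 0.31), the cross-linkers Actn1 (-0.69 ± 0.24) and Flna (-0.68 ± 0.23) and the focal adhesion gene Zyx (-0.35 ± 0.12). Pfn1 pair differences were -1.25, -2.33, 0.25 and 0.04, and those of Actn1 -1.06, -1.56, -0.07 and -0.08. Srf itself rose by 0.62 ± 0.24. Tpm3 was at 0.79 ± 0.33, with a pair difference of 2.45 in replicate 2, and its direction turned to -0.259 when the probes were fitted on their own.

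Matrix genes and proteases gave 6 lower and 2 higher of 25 (32%; median -0.135). Sparc, a collagen-binding matricellular protein, was at -1.01 ± 0.33 with pair differences of -1.59, -2.28, -0.15 and -0.00. The laminin chain Lama5 (-0.55 ± 0.15; pairs -0.21, -0.92, -0.49 and -0.59) and fibronectin, Fn1 (-0.34 ± 0.14; pairs -0.31, -0.50, -0.28 and -0.24), fell in all pairs. Col1a2 (-0.48 ± 0.18), Col5a2 (-0.36 ± 0.12) and Lamb3 (-0.39 ± 0.15, well above background on 3 of 4 Ang II+Los arrays) completed the lower members. Mgp, which inhibits calcification, rose in every pair past the fold limit (0.68 ± 0.22), with 6.49, 6.05, 5.92 and 5.71 in Control and 6.97, 7.57, 6.28 and 6.06 in Ang II+Los, and the protease inhibitor Timp2 rose by 0.37 ± 0.12. For Mgp, Ang II minus Control was 0.05 (unadjusted p = 0.84) and Ang II+Los minus Ang II 0.63 (unadjusted p = 0.015).

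TGF-beta genes gave 2 higher and 3 lower of 19 (26.3%; median -0.216). Beside Ltbp1, the pseudoreceptor Bambi (-0.55 ± 0.18) and the ligand Tgfb2 (-0.41 ± 0.16) fell, and Smad6 (0.47 ± 0.18) and Pmepa1 (0.61 ± 0.22), both inhibitors of the pathway, rose. YAP and TEAD genes, a list of pathway members and targets together, gave 1 higher and 3 lower of 14 (28.6%; median -0.168). The coactivator gene Wwtr1 (-0.51 ± 0.14), Ajuba (Jub on the array, -0.34 ± 0.12) and Tgfb2 fell and the ectonucleotidase Nt5e (0.38 ± 0.13) rose. The target Ctgf was not past the limits (0.06 ± 0.17). Wwtr1 and Ajuba were lower in all 4 pairs.

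Immediate early factors, among the first targets of AT1 in many cells, gave 2 higher and 5 lower of 19 (36.8%; median -0.136). Egr1, a zinc finger factor induced through ERK and SRF, read 7.60, 9.14, 6.39 and 7.69 in Control and 6.97, 6.02, 6.05 and 7.37 in Ang II+Los (-1.10 ± 0.41). Each pair passed the fold limit downwards, and replicate 2 alone exceeded 3 log2 units. Nr4a2 (-1.27 ± 0.33) and Ier2 fell too. All Ang II+Los arrays of Ier2, at 10.04, 9.75, 10.97 and 10.80, were below all Control arrays, at 11.18, 11.24, 11.07 and 11 (-0.73 ± 0.24). Myc (-0.48 ± 0.20) and Fosl2 (-0.46 ± 0.18) were lower in replicates 2 and 4 and close to Control in the others.

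Nab2, the corepressor of EGR factors, rose by 0.36 ± 0.10 (unadjusted p = 0.00494) with no overlap: 12.04, 12.04, 11.95 and 11.98 in Control and 12.26, 12.40, 12.30 and 12.48 in Ang II+Los. Klf10, a TGF-beta-induced factor, rose by 0.83 ± 0.30, with a pair difference of 2.41 in replicate 2. ERK feedback genes gave 2 higher and 2 lower of 14 (28.6%; median -0.0484): the phosphatase Dusp6 (0.34 ± 0.14) and the EGF receptor ligand Areg (0.44 ± 0.16) rose, and the factor Etv1 (-1.24 ± 0.47) and the inhibitor Spry2 (-0.97 ± 0.37) fell. Etv1 pair differences were -2.04, -2.96, 0.05 and -0.01, the second form again.

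Circadian clock genes gave 1 higher and 4 lower of 13 (38.5%; median -0.185). The repressor Bhlhe40 read 7.88, 8.05, 8.50 and 7.95 in Control and 5.06, 3.73, 8.82 and 8.08 in Ang II+Los (-1.67 ± 0.67), low on 2 Ang II+Los arrays and not lower on the others. It was well above background on 3 of the 4 Ang II+Los arrays, so the size of its fall is uncertain. Nfil3 (-1.07 ± 0.31) followed the stress genes, with pair differences of -0.28, -2.09, -0.18 and -1.72. Npas2 (-0.57 ± 0.23) and Arntl (-0.38 ± 0.16) were lower and the repressor Cry1 (0.48 ± 0.15; pairs 0.59, 0.84, 0.19 and 0.30) was higher.

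Inflammatory genes under NF-kB gave 4 higher and 4 lower of 17 (47.1%; median 0.103). The chemokines Cxcl10 (0.34 ± 0.10), Cxcl12 (0.55 ± 0.18) and Ccl7 (0.46 ± 0.17) and the factor Irf1 (0.64 ± 0.19) rose, and Nfkb1 (-0.40 ± 0.16), Nfkbib (-0.55 ± 0.19), Tnfaip2 (-0.45 ± 0.18) and the adhesion molecule gene Icam1 (-0.33 ± 0.13) fell. Cxcl10 rose in all 4 pairs by 0.23 to 0.58. Heat shock genes gave 5 higher and 2 lower of 23 (30.4%; median 0.169): the chaperone Hspa1b (1.04 ± 0.37), its co-chaperones Dnaja1 (0.63 ± 0.15), Bag3 (0.55 ± 0.18) and Dnajb4 (0.38 ± 0.16) and Cacybp (0.28 ± 0.12) rose, and the regulator Hsf1 (-0.40 ± 0.13) and the mitochondrial chaperone Hspa9 (-0.91 ± 0.40) fell.

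Cholesterol synthesis genes gave 5 higher and 1 lower of 27 (22.2%; median -0.00011). Stard4, a sterol transporter, rose in all pairs past the fold limit (0.68 ± 0.19; pairs 0.58, 1.37, 0.32 and 0.45). Hmgcs1 (0.49 ± 0.15), Acat2 (0.47 ± 0.15), Idi1 (0.46 ± 0.16) and Sc4mol (0.37 ± 0.17) rose and Mvk (-0.33 ± 0.12) fell. NRF2 targets gave 1 higher and 3 lower of 21 (19.0%; median -0.212): the glutathione synthesis gene Gclc (0.30 ± 0.10) rose, and Cat (-1.06 ± 0.43), Abcc1 (-0.78 ± 0.22) and the ferritin light chain Ftl1 (Ftl on the array, -0.40 ± 0.12) fell. All Ftl1 values with Losartan and Ang II, from 15.95 to 16.54, were below all Control values, from 16.57 to 16.74.

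Hypoxia and glycolysis genes gave 1 higher and 5 lower of 25 (24.0%; median -0.0830), among them Hk2 (-0.93 ± 0.33), Car9 (-0.90 ± 0.38), Pfkl (-0.71 ± 0.25) and P4ha2 (-0.36 ± 0.11) lower and Pfkp (0.31 ± 0.13) higher. Hk2, Car9 and Pfkl were lower in replicates 1 and 2 and within 0.25 of Control in the other pairs. PPAR targets gave 1 higher and 1 lower of 16 (12.5%; median 0.0198), Acsl1 (0.32 ± 0.13) and Ppara (-0.59 ± 0.20). Ribosome biogenesis genes gave 3 higher and 4 lower of 38 (18.4%; median 0.0348): Lyar (0.65 ± 0.23), Fbl (0.50 ± 0.16) and Ddx21 (0.29 ± 0.12) rose, and Dkc1 (-0.72 ± 0.27), Nop2 (-0.38 ± 0.14), Ncl (-0.34 ± 0.16) and Rrp9 (-0.33 ± 0.13) fell. The shares of these last 2 lists, and that of NRF2 targets (19.0%), were below the 20.0% of all genes. Those of cholesterol synthesis (22.2%), G1/S (23.5%) and hypoxia and glycolysis genes (24.0%) were close to it. TGF-beta (26.3% of 19), SRF actin (28.0% of 25), YAP-TEAD (28.6% of 14) and ERK feedback genes (28.6% of 14) were not far above it. In lists of that size a few genes make the gap.

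The list of network hubs and qPCR genes holds part of those the study chose on these samples, and is not independent evidence of a direction. Other hubs of the study, such as Ccne1, Dusp6 and Slc7a5, stand in the lists above. Of 35 members 31 were tested, 2 were higher and 4 lower (19.4%). Map2k4 and Mcm7 were higher, and Agtrap, Zyx and the spectrin gene Sptan1 (Spna2 on the array, -0.41 ± 0.12) were among the lower. Among qPCR genes that were not past the limits, Hbegf, an EGF receptor ligand, was at -0.33 ± 0.16 and was lower in replicates 2, 3 and 4. The laminin gene Lamb1 was at -0.19 ± 0.12, the water channel gene Aqp2 at -0.16 ± 0.18, the adhesion scaffold Bcar1 at -0.14 ± 0.11, the kinase Prkca at -0.09 ± 0.11 and the matricellular gene Ctgf at 0.06 ± 0.17.

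Of 14 astrocyte and glial markers 8 were tested and none passed in either direction, and their summed level (log2 of the sum of intensities) ranged from 12.3 to 12.7 in Control and from 12.2 to 12.7 in Ang II+Los. Gfap was well above background on 0 of the 16 arrays. Of 6 tested oligodendrocyte lineage markers Cnp (-1.05 ± 0.44) and Olig1 (-0.82 ± 0.29) fell. Olig1 read 5.42, 5.65, 5.26 and 5.47 in Control and 3.91, 4.04, 5.13 and 5.42 in Ang II+Los, the layout of Ltbp1, and was well above background on 3 of the 4 Ang II+Los arrays, which leaves the size of its fall uncertain. The summed level of that list was 12.6 to 12.9 in Control and 12.3 to 13.2 in Ang II+Los. Among 7 microglial markers Cx3cr1 fell (-0.68 ± 0.26), among 3 endothelial markers Flt1 rose (0.48 ± 0.14, well above background on 3 of 4 Control arrays), and none of 3 neuron markers passed. Median differences of the marker lists were -0.151 for glial, -0.359 for oligodendrocyte, -0.141 for microglial, 0.276 for endothelial and -0.239 for neuron markers. The oligodendrocyte list had pair medians of -0.864, -0.882, -0.0253 and -0.0302, and in replicate 2 the endothelial and neuron lists were at 0.807 and -0.820. Their summed levels ranged in Control and in Ang II+Los from 10.3 to 11 and from 10.2 to 11 for microglial markers, from 6.22 to 7.39 and from 6.38 to 6.84 for endothelial markers, and from 7.21 to 7.85 and from 6.90 to 7.94 for neuron markers. The part of other cell types in the results was not tested.

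Genes that differed on every slide were few. A fold above 1.2 in each of the 4 pairs was found for 84 genes (0.616%) and below 0.8 for 28 (0.205%). The listed genes among them were Cdca8, Gins2, Mad2l1, Map2k4, Mgp and Stard4 upwards and Egr1 and Syvn1 downwards. All 4 Ang II+Los arrays lay above all 4 Control arrays for 114 genes (0.836%) and below for 80 (0.587%). Map2k4 and Nab2 above and Ftl1 and Ier2 below were the listed genes past both limits among these.

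The same comparison was made after 6 h on a separate set of 8 arrays, where 1880 of 16446 genes passed both limits (11.4%) and 224 had an adjusted p under 0.05 in limma (1.36%; lowest 0.0264). Over the 13617 genes tested at both times, 2722 were past the limits at 3 h, 1424 at 6 h and 363 at each time, which is 13.3% of the first and 25.5% of the second, where 10.5% of all these genes passed at 6 h and 20.0% at 3 h. Of these, 304 (83.7%) had the same direction, 161 up and 143 down. Without replicate 2, 69 genes passed at both times, and without replicate 3, 594. Of the 187 genes with an adjusted p under 0.05 at 6 h that were also tested at 3 h, 101 (54.0%) had the same sign at 3 h, against 53.5% of all genes tested at both times, and 40 (21.4%) were past both limits there, against 20.0% of all, 30 of them in the same direction.

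The stress and replication lists had like counts at both times. At 6 h 13 of 25 integrated stress response genes and 13 of 22 ER genes fell and none rose, and 22 of 41 replication genes and 7 of 37 mitotic genes rose and none fell. Of all genes tested at both times, 10.5% passed these limits at 6 h. Few members had an adjusted p under 0.05 in limma at 6 h: 1 integrated stress response, 0 ER, 1 replication and 1 mitotic gene. Ddit3 differed by -1.20, Herpud1 by -1.0, Dnajb9 by -1.02 and Syvn1 by -0.72 at 6 h, and Cdc6 by 0.63, Gins2 by 0.78 and Mcm10 by 0.86, all past both limits. As at 3 h, replicates 2 and 4 carried the stress difference at 6 h, with pair medians of 0.093, -0.92, -0.14 and -0.84 for the integrated stress response list. Replication pair medians at 6 h were 0.065, 0.73, -0.040 and 0.67.

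Several other genes were not past the limits at 6 h. Ltbp1 differed by -0.04 at 6 h, Sptbn1 by 0.12, Bhlhe40 by 0.19 and Ppp1r3c by -0.06. Genes past the limits at both times but in opposite directions included Pfn1, at 0.35 at 6 h. Others were Egr1 (0.39 at 6 h), Etv1 (0.43), Cat (0.46), Cnp (0.30) and Cry1 (-0.38). Agtrap was at -0.13 and Map2k4 at 0.09, neither past the limits. A test of whether the difference itself changed between the times gave 0 genes with an adjusted p under 0.05 in limma (lowest 0.142) and 2727 of 13617 at an unadjusted p under 0.05, so no gene is called different between 3 h and 6 h.

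**Figure D5:**
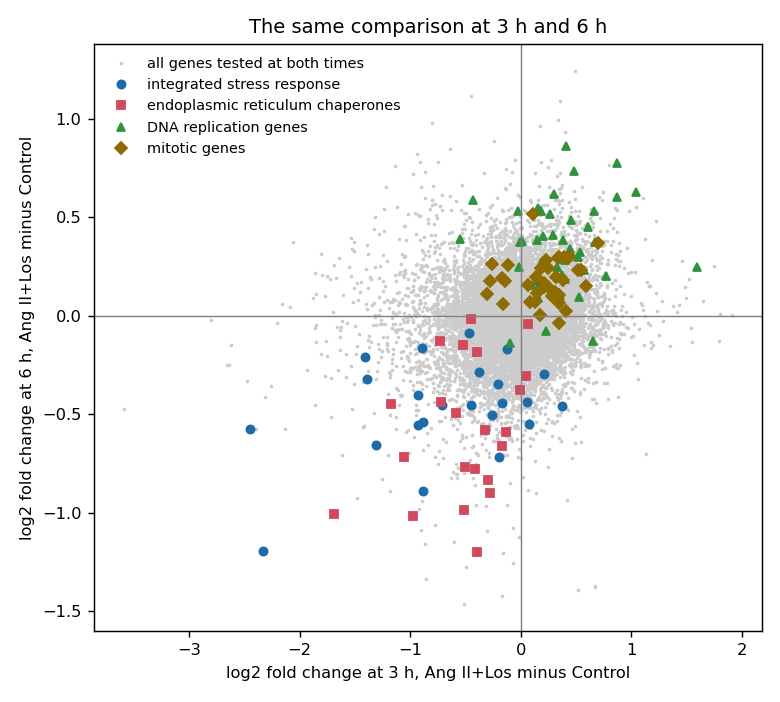
Log2 difference between Ang II+Los and Control at 3 h against 6 h for the members of the integrated stress response, ER chaperone, DNA replication and mitotic lists. Most stress and ER members lie below 0 at both times, with Ddit3 at -2.33 and -1.20, and most replication members lie above 0 at both.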

How the data were processed

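The 16 arrays of 3 h (4 groups of 4) were analysed together, as were those of 6 h. The authors deposited Agilent Feature Extraction output (version 9.5.3.1 in the submitters' processing notes), whose background-subtracted processed intensity was used, and a table of log2 values deposited by the authors, which was used as an alternative only. Spots that were outliers within their array were left out. On the 3 h arrays, dim spots (not significantly above background) had their intensity replaced by the scanner's error estimate for the spot. On the 6 h arrays the deposited intensity of dim spots was already near that estimate (median ratio 1.00). Spots of a probe were averaged. Log2 intensities were normalized by cyclic loess (span 0.7, 3 iterations) among the 16 arrays of a time, with limma 3.58.1 in R 4.3.3. A probe was kept if the scanner called it well above background on each array of 1 or more groups and it had at most 2 gaps, and kept probes of a gene were averaged. limma (lmFit, eBayes) used the replicate number, which is the slide, as a block, and Benjamini-Hochberg adjustment over all genes. Deviations from the group means correlated at 0.697, 0.148, 0.722 and 0.429 between Control and Ang II+Los arrays of replicates 1 to 4. Between arrays of different numbers the values ran from -0.637 to 0.111, the latter for Control 1 with Ang II+Los 2. The pairing was therefore barely visible in replicate 2. The study's methods name t-tests at an unadjusted threshold, which were run as an alternative.

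The comparison, gene lists and named genes were chosen with earlier results of these data known. Named genes were the 12 highest and 12 lowest past an unadjusted p of 0.05 in the same direction in 4 pairs, well above background on all 8 arrays and with a gene symbol, list members past both limits, the renin-angiotensin genes measured, and hub or qPCR genes; some of these are not reported here. Of 653 unique list names, 606 were found as given, 20 by accession and 4 by another name; 507 were tested and 123 were not well above background. Current symbols and promoters came from RefSeq (GRCr8), and probe positions from the files (rn4). In simulated data with a known difference of 0.5 or 1 on the log2 scale, 74.0% and 98.0% of changed genes passed both limits. The adjusted limit was passed by 0.00% and 75.0% of them, and both limits by 4.25% of unchanged genes. These rates describe the simulated data only. On the real 3 h arrays the standard deviation from the other 3 arrays of the slide ran from 0.171 to 0.846. Whether the rates hold under such unequal spread was not tested.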

Additional observations from a re-analysis of the deposited data

Results flagged for a closer look

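In groups of 4 arrays, a value was looked at again when its gap to the nearest other array, divided by the range of the group, was beyond Dixon's limit. This was so for 29 of 342 groups (8.48%), where chance gives about 1 in 20. In Control, replicate 1 was far below the other 3 arrays for Ddit3 (0.978 of the range), Sdf2l1 (0.928), Trib3 (0.924), Nupr1 (0.916), RGD1566319, which is Sesn2 (0.914), Atf5 (0.910), Herpud1 (0.903), Tra1, which is Hsp90b1 (0.902), Spna2, which is Sptan1 (0.897), P4ha2 (0.869), Manf (0.866), Calr (0.854), Atf4 (0.849), Nfxl1 (0.837) and Mthfd2 (0.830). Control replicate 1 was far above the others for Fen1 (0.845) and Ace (0.838), and Control replicate 2 for Ganab (0.922) and Arntl (0.858).

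In Ang II+Los, replicate 3 was far above the other 3 arrays for Nfil3 (0.951), Icam1 (0.930), Myc (0.882), Slc7a1 (0.880), Ddit3 (0.866) and RGD1566319 (0.848), and far below them for Cdc6 (0.908), Orc1l, which is Orc1 (0.897), and Cxcl12 (0.856). Replicate 1 was far below for Sdf2l1 (0.832). These arrays belong to slides 1 and 3, on which the Control and treated arrays shared the level of the stress genes.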

How the results depend on the processing

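Against 2724 genes past both limits (1352 higher, 1372 lower), 75th percentile scaling gave 2949 (1159 and 1790), quantile normalization 2637 (1174 and 1463), normexp background 2014 (1145 and 869), a strict filter 2485, no filter 3060, each probe on its own 3115 and the deposited log2 values 1930. Without the replicate block there were 651 (307 and 344), with the 8 arrays alone 979 (525 and 454), with array weights 1151 (661 and 490), with the methods' t-test in its paired form 330 (201 and 129) and unpaired 228 (138 and 90). Scan 1 alone gave 3641 (1572 and 2069) and scan 2 alone 776 (399 and 377), with 634 and 1 genes past the adjusted limit, against 0 in every other setting. Slides 1 and 3 alone, chosen after seeing the data, gave 656 (319 and 337). Leaving out replicates 1 to 4 in turn gave 852 to 3390 genes (496 to 1531 higher, 356 to 1859 lower), lowest without replicate 2 and highest without replicate 3.

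At 6 h, where 1880 passed, there were 541 without the block, 603 and 258 with the paired and unpaired t-test, 798 with normexp, and 1144 to 2767 when a replicate was left out. Genes past the limits at both times, 363, became 29, 11, 3 and 206 under the same settings, 124 with the 8 arrays alone, and 69 to 594 when a replicate was left out.

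Integrated stress response members that fell (13) became 8 in scan 1, 5 in scan 2, 0 on slides 1 and 3 and 4 to 17 when a replicate was left out. For ER chaperones (10) these were 5, 4, 1 and 1 to 10. DNA replication members that rose (18) became 9 in scan 2, 4 on slides 1 and 3 and 11 to 17. Mitotic members (9) became 3, 1 and 3 to 11.

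Directions turned as follows. In scan 2 alone: Bhlhe40 0.221, Lnpep 0.221, Pfn1 0.147, Cdkn1b 0.0838, Hk2 0.0768, Dkc1 0.0444, Cnp 0.0300, Hspa9 0.0276, Etv1 0.0210, Cdkn1a 0.0207, Mtus1 0.0206, Npas2 0.0199 and Pfkl 0.00891. On slides 1 and 3: Herpud1 0.213, RGD1566319 0.0793, Mtus1 0.0706, Atp6ap2 0.0591, Atf4 0.0435, Arntl 0.0319 and Fosl2 0.00555. Rrm2 was -0.0109 in scan 1 and -0.188 for its least supporting probe, which gave -0.259 for Tpm3; the strict filter gave Tpm3 -0.259 and the deposited values -0.305. Mtus1 was 0.0222 with quantile normalization, 0.00859 with normexp, 0.426 for its least supporting probe and 0.00289 with array weights. Lnpep was 0.118 with array weights, Atp6ap2 0.0257 with normexp and Ace 0.0538 with no filter. When replicates were left out in turn, Ace ranged from -0.202 to 0.0657, Atp6ap2 from -0.164 to 0.0261 and Mtus1 from -0.0340 to 0.0323. Ctgf was -0.00256 with quantile normalization, -0.0998 with array weights, -0.0481 with the deposited values and -0.299 in scan 2 alone, and ranged from -0.130 to 0.186 when replicates were left out. Bcar1 was 0.0575 for its least supporting probe and 0.0573 in scan 2 alone, and Lamb1 0.0114 on slides 1 and 3. Of 171 named genes, none other reversed, and 134 lost the call without the replicate block. The cause of these changes was not tested.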
